A study of Mus musculus with 34 samples.

Results

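Handsdown (Hdn) is a long non-coding RNA gene of the mouse that lies beside Hand2 on chromosome 8, and the 10 genes described here are Hdn, Hand2 and 8 of the genes around them. They were chosen by name from the 52636 genes of the deposited expression table as genes around Hand2, and they are not all the genes of that region. RNA was sequenced from F1(G4) mouse embryonic stem cells (ESCs, self-renewing cells grown in culture) of strain 129S2/C57Bl6J, either wild type or mutant for Hdn. Samples of either genotype were taken before differentiation, as ESCs, and after 3, 4, 5 and 6 days in 20 ng/mL of the growth factor BMP4, with 3 libraries in each of the 10 groups. Mutant samples are titled Hdn null. The DNA change, the number of clones behind the mutant line and the origin of the 3 libraries of a group, from separate cultures or not, are unstated in the labels. The p-values below therefore measure the spread between these libraries, which may be technical. The labels disagree with each other on 2 points, since the design text names Brachyury mutants and the growth protocol describes dissected hearts. Titles and treatment protocol, which name Hdn and ESC differentiation, were followed here.

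Hand2 encodes a basic helix-loop-helix transcription factor that binds DNA as a pair with an E protein and is needed for the growth of the right ventricle, the limb buds and the branchial arches. Its RNA is low in pluripotent cells and appears in lateral mesoderm and heart progenitors, where BMP signals and GATA factors act on it. Long non-coding RNA genes flank Hand2 on either side, and the transcription of such a gene can matter apart from the RNA it makes. Hand2os1 starts close to Hand2 and runs away from it, and Hdn and Gm34030 lie on its other side. The protein-coding neighbours have unrelated roles. Hpgd encodes the enzyme that inactivates prostaglandins, Fbxo8 an F-box protein, Scrg1 a small secreted protein, Sap30 a subunit of the Sin3 histone deacetylase complex, Hmgb2 an abundant chromatin protein, and Galnt7 an enzyme that adds GalNAc sugars to proteins.

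Positions on chromosome 8 are those of RefSeq for GRCm38.p6. Hand2 (ENSMUSG00000038193) spans 57320983 to 57324517, and Hdn (listed as 5033428I22Rik, ENSMUSG00000097910, and in RefSeq as Hdnr) spans 57332435 to 57354580, with 7917 bases between them. Gm34030 (57331691 to 57335140) overlaps one end of Hdn. Hand2os1 (57304261 to 57320859) is separated from Hand2 by 123 bases. On the far side of Hdn lie Scrg1, Sap30, Hmgb2 and Galnt7, with 131364, 158184, 187325 and 199307 bases between each and Hand2. On the near side lie Fbxo8 (56551154 to 56593939) and Hpgd (56294552 to 56321046), with 727043 and 999936 bases between each and Hand2. The level of a gene is given as scaled RPKM, the deposited reads per kilobase of gene and per library size divided by a size factor for each library, so that levels of different genes are compared per length of gene.

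The promoter windows of Hand2 and Hpgd are shown because these were the members called for the Hdn mutation among the 6 with enough RNA for the model across all genes. Each holds 250 bases before the annotated start and 50 from the start on, from RefSeq, and 8 of the 10 members had such a window. Hand2 lies at chr8:57320733-57321032 on the plus strand, and the capitals mark the 123 bases that separate the starts of Hand2os1 and Hand2. Hpgd lies at chr8:56294302-56294601 on the plus strand, and the capitals mark the 50 bases from the start on.
Hand2: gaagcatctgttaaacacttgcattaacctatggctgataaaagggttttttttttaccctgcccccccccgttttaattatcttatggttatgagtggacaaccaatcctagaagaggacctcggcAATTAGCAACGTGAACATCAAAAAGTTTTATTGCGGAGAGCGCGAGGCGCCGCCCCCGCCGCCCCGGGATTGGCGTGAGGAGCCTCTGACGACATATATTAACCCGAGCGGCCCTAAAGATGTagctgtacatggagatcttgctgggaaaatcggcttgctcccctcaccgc
Hpgd: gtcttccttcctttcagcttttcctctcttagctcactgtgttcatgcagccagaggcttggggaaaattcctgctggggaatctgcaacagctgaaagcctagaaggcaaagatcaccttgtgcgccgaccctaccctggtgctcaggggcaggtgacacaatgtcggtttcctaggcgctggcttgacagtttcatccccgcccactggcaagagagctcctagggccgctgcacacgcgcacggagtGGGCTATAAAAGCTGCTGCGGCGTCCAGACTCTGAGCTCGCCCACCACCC

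The Hand2 and Hand2os1 windows shared 223 of their 300 bases, so both genes start from nearly the same stretch of DNA. Short motifs were searched on both strands. The E box CANNTG, bound by helix-loop-helix factors, occurred 2 times in the Hand2 window, at positions -246 and -235 from the start, and 2 times in the Hpgd window, at -161 and -99. It occurs in 72.3% of all 32851 windows of this length. A GATA motif (AGATAA or AGATAG or TGATAA or TGATAG) occurred 2 times in the Hand2 window, at -215 and -172, and not in that of Hpgd, against 29.8% of all windows. CCAAT occurred 2 times in the Hand2 window, at -147 and -55 (37.4% of windows), and GGCGCC, a sequence bound by the SMAD factors of BMP signalling, occurred 1 time, at -78 (11.9% of windows). TATAAA occurred 1 time in the Hpgd window, 4 bases past the start, and not in that of Hand2 (13.6% of windows). No match in these windows overlapped another. The Hand2 window held 17 CpG dinucleotides, that of Hpgd 12, and the median window 7.

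The 30 libraries held 43.3 to 68.4 M reads (median 57.2), worked out from the smallest steps of the deposited values, and 14196 genes passed a filter of 1 scaled RPKM in at least 3 libraries. The labelled stages were checked against markers: the summed level of 7 pluripotency genes was 1266 to 1357 scaled RPKM in ESCs and 35.8 to 91.6 on day 6. Libraries that stood apart were 5 mutant ones, namely day 4 replicate 3, day 5 replicate 3 and all of day 6. In these, 9 to 12 of 12 genes of mature heart muscle reached 1 scaled RPKM and 0 were at 0, against 2 to 4 reaching 1 and 2 to 5 at 0 in the other 25 libraries. The summed level of these 12 genes did not separate the libraries, at 237 to 771 scaled RPKM in the 5 and 110 to 691 in the others. The summed level of 5 adult red cell genes was 73.1 to 720 scaled RPKM in the 5 libraries. In the others it was 0.0455 to 4.82, except 49.3 in wild-type day 6 replicate 3. The summed level of 4 Y-linked genes and Xist was 0.621 to 1.03 in wild-type ESC libraries, 4.86 to 7.97 in those of wild-type days 3 to 6, and 8.77 to 24.9 in mutant libraries. Wild-type ESCs thus stood apart from the wild-type cells of later days, and wild type from mutants, and the part of this in the genotype differences, in the wild-type steps from ESC and in the step differences was not tested. In bulk RNA, more cells of a type and more RNA per cell cannot be told apart.

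Hdn itself was silent in ESCs and came on late in wild-type cells, while mutant libraries had almost no Hdn reads at any stage. Wild-type ESC libraries had 0, 0 and 0 reads, and the wild-type libraries had 2, 4 and 0 on day 3, then 1, 2 and 9 on day 4. They had 19, 24 and 29 reads on day 5 and 60, 37 and 240 on day 6. Mutant libraries had 0 reads in all of ESCs and days 3 and 4, and their counts were 0, 0 and 1 at day 5 and 0, 8 and 3 at day 6. Where no read was seen, a true level worth 3 reads per library remains possible, and Hdn below that is not detectable at this depth. Mean Hdn on day 5 was 0.0362 ± 0.00837 scaled RPKM (SD, n = 3, as below) for wild type and 0.00051 ± 0.000884 for mutants, and the day 6 means were 0.162 ± 0.157 and 0.00565 ± 0.00607. From day 4 on no mutant library reached a wild-type one, with an exact two-sided permutation p of 0.1 on each of days 4, 5 and 6, the smallest that 3 against 3 libraries allow. Permuted within stages over all 30 libraries, mutants minus wild type came to -0.0403 scaled RPKM (permutation p = 4e-05, lower at 4 of 5 stages and 0 in both genotypes in ESCs). Without wild-type day 6 replicate 3 the difference was -0.0223 (permutation p = 3e-05). All 3 mutant libraries in which Hdn was seen belong to the 5 with heart transcripts, whose part in those reads was not tested.

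Gm34030, a non-coding RNA with no known role, likewise came on in wild-type cells on days 5 and 6, and its DNA overlaps that of Hdn. Wild-type libraries had 0 reads in ESCs, 0, 1 and 0 on day 3, and 1, 0 and 1 on day 4. They then had 2, 28 and 11 on day 5 and 26, 24 and 128 on day 6. Mutant libraries had 0 reads through day 5 except for 2 in replicate 3 of day 4, and their day 6 counts were 2, 7 and 8. The groups did not overlap on days 5 and 6 (exact permutation p = 0.1 on each), and the difference within stages was -0.163 scaled RPKM (permutation p = 0.00263, lower at 3 of 5 stages). It was -0.0832 without wild-type day 6 replicate 3, and its p rose to between 0.085 and 0.1 without any 1 mutant day 6 library. How reads in the overlap of Gm34030 and Hdn were assigned, and whether strand was used, is not given in the sources used here, so their separate levels are uncertain.

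Hand2os1, which starts opposite Hand2, went the other way from Hdn and Gm34030 and was higher in mutants. Wild-type libraries had 0 reads in ESCs and on day 3, then 0, 4 and 5 on day 4, 17, 121 and 119 on day 5, and 40, 121 and 595 on day 6. Mutant libraries had 2, 0 and 0 in ESCs, 3, 0 and 13 on day 3, and 6, 13 and 137 on day 4. Their day 5 counts were 209, 252 and 320, and their day 6 counts 450, 908 and 722. Days 4 and 5 showed no overlap of the groups, whereas wild-type replicate 3 of day 6 reached into the mutant range. Day 5 means were 0.112 ± 0.079 scaled RPKM for wild type and 0.35 ± 0.0648 for mutants, and those of day 6 were 0.313 ± 0.361 and 0.91 ± 0.313. Exact permutation p was 0.1 on days 4 and 5 and 0.2 on day 6, and within stages the difference was 0.182 (permutation p = 0.00598, higher at 5 of 5 stages). Mutant day 4 replicate 3, with 137 reads against 6 and 13 in the others, and all mutant libraries of day 6 were among those with heart transcripts, whose part in the Hand2os1 reads was not tested. Hdn, Gm34030, Hand2os1 and Scrg1 stayed under the filter and were left out of the model across all genes.

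**Figure D1:**
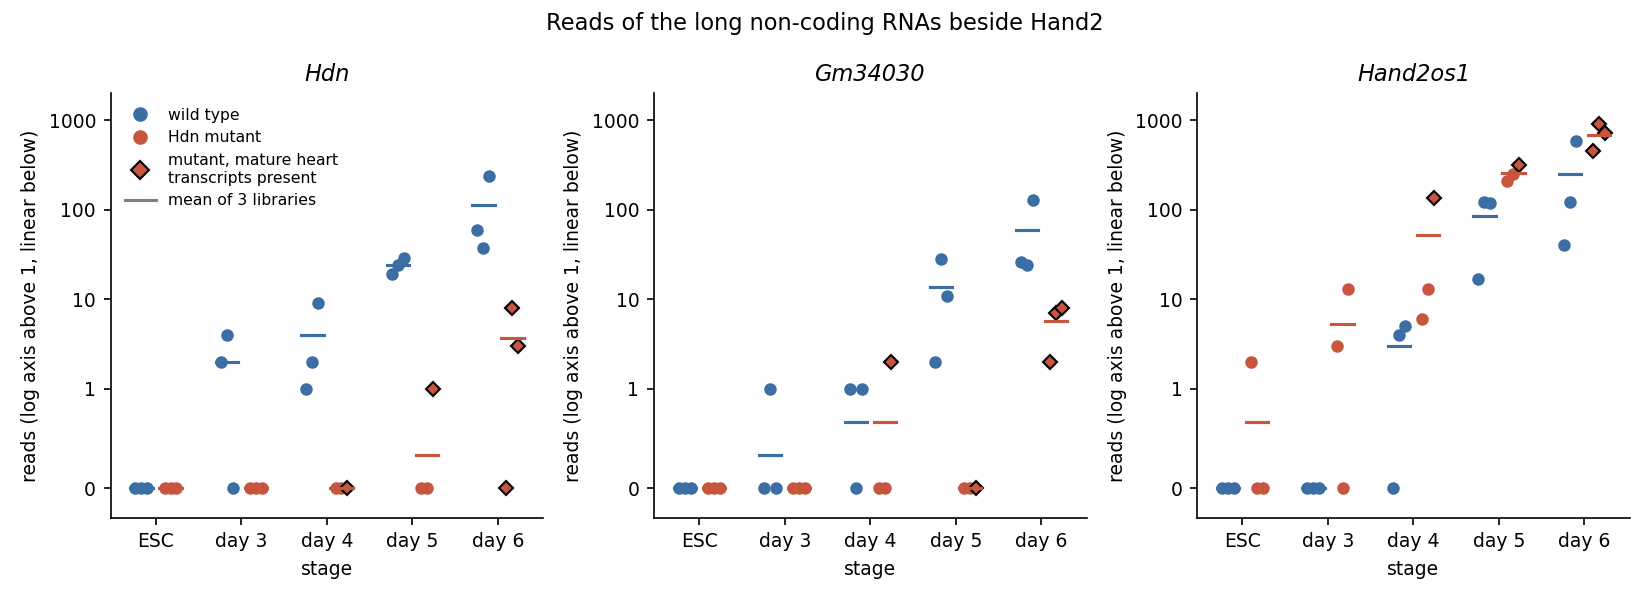
Reads per library (vertical axis, logarithmic above 1 read) of Hdn, Gm34030 and Hand2os1 by stage in wild-type and mutant libraries, each point 1 library and each bar the mean of 3. Hdn reaches 240 reads in wild type and at most 8 in mutants, while Hand2os1 reaches 908 reads in mutants; diamonds mark the 5 mutant libraries with mature heart transcripts.

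Hand2 was higher in Hdn mutants on days 4, 5 and 6, and its largest level anywhere was on mutant day 6. Wild-type ESC libraries were at 0.266, 0.101 and 0.0664 scaled RPKM and mutant ones at 0.17, 0.0498 and 0.063, so the genotypes overlapped. On day 3 wild-type cells had almost none, at 0.0162, 0.0072 and 0.00635 (2, 1 and 1 reads), whereas mutants were at 0.341, 0.115 and 0.52 (47, 12 and 66 reads). All 3 mutant libraries lay above all 3 wild-type ones on that day.

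The day 4 levels were spread widely in both genotypes. Wild type was at 0.0205, 0.246 and 0.881 scaled RPKM and mutants at 0.788, 1.84 and 6.04, and the lowest mutant library lay below the highest wild-type one. On day 5 wild type was at 2.24, 6.44 and 10.5 and mutants at 24.1, 34.2 and 35.1, with no overlap. On day 6 wild type was at 5.76, 14.4 and 56 and mutants at 66.3, 91 and 77.5, again with no overlap, though wild-type replicate 3 came close. That library also had the most Hdn, Gm34030 and Hand2os1 reads of all wild-type libraries, and summed levels of 132 for 6 embryonic cardiac muscle genes and 159 for 6 endothelial and early blood genes.

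The change was fitted with limma on log2(scaled RPKM + 0.5) over all libraries, a scale that understates changes of low genes. Calls needed both a log2 change of 1 or more in either direction and a p under 0.05 after Benjamini-Hochberg adjustment across the 14196 genes. The Hand2 change, mutant minus wild type, was -0.11 in ESCs (SE 0.58, adjusted p = 0.912) and 0.66 on day 3 (adjusted p = 0.506), and neither was called. It was 1.73 on day 4 (adjusted p = 0.034), 2.39 on day 5 (adjusted p = 0.00395) and 2.17 on day 6 (adjusted p = 0.00674), in limma, all called. The mean of the 5 stages was 1.37 (SE 0.26, adjusted p = 0.000104). With a pseudocount of 0.1, which compresses low levels less, the day 3 change was 1.82 and limma's adjusted p was 0.0943.

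The mature heart genes moved with Hand2 in part of these libraries. Without the 5 libraries that held them, the day 4 change was 1.10 (limma adjusted p = 0.272) and was no longer called, and the day 5 change was 2.30 (adjusted p = 0.0115) and stayed called. No mutant library of day 6 remained. The summed level of 6 embryonic cardiac muscle genes was 24.4 to 132 scaled RPKM in wild-type and 471 to 917 in mutant libraries of day 6, and its part in the Hand2 difference was not tested. Leaving out wild-type replicate 1 or 2 of day 4 also ended the day 4 call (1.41 and 1.67), and leaving out wild-type replicate 1 of day 6 ended that of day 6 (1.43, limma adjusted p = 0.0638).

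**Figure D2:**
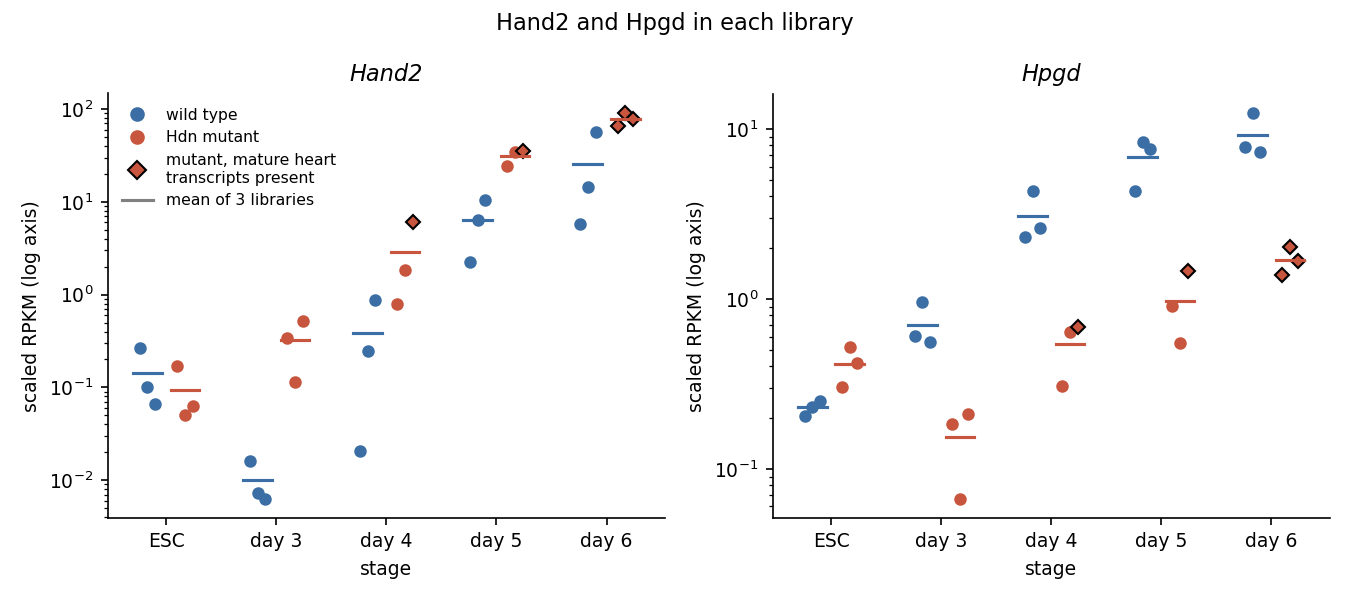
Scaled RPKM (logarithmic axes) of Hand2 and Hpgd by stage, each point 1 library and each bar the mean of 3 libraries of a group. The Hand2 mean of mutants lies above that of wild type on day 5 (31.1 against 6.4) and day 6 (78.3 against 25.4), and the Hpgd mean lies below it, with 1.69 against 9.17 on day 6; diamonds mark mutant libraries with mature heart transcripts.

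Ordered by mean level, Hand2 was lowest in wild-type day 3 cells (0.00993 ± 0.00549 scaled RPKM), and the ranges of that group and the next, mutant ESCs (0.0944 ± 0.0662), were apart. Wild-type ESCs (0.145 ± 0.106), mutant day 3 (0.325 ± 0.203), wild-type day 4 (0.382 ± 0.446), mutant day 4 (2.89 ± 2.78) and wild-type day 5 (6.4 ± 4.14) followed. Each of these overlapped its neighbour. Wild-type day 6 (25.4 ± 26.9) overlapped mutant day 5 (31.1 ± 6.11), and mutant day 6 (78.3 ± 12.3) stood apart from mutant day 5. The Hand2 range of mutants on a given day thus overlapped that of wild-type cells 1 day later on days 3, 4 and 5. Mutant day 4 met wild-type day 5 only through mutant replicate 3 (6.04) and wild-type replicate 1 (2.24). Mutant day 5 (24.1 to 35.1) met wild-type day 6 only through wild-type replicate 3 (56). Wild-type replicates 1 and 2 of day 6 lay below every mutant day 5 library, at 5.76 and 14.4.

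The ratio of Hand2 to its divergent partner overlapped between the genotypes although both RNAs were higher in mutants. Over the libraries with at least 10 reads of each, Hand2 was 39.9 to 121 times Hand2os1 per length in 6 wild-type libraries (median 82.1) and 27.7 to 118 times in 9 mutant libraries (median 83.5). On day 6 these ratios were 121, 86.8 and 77.4 in wild type and 118, 77.9 and 77.4 in mutants. Both starts share the 123 bases shown in capitals above, and reads of the pair cannot be told apart by strand from the sources used here. Hand2 was 68.7 to 242 times Hdn in the 6 wild-type libraries of days 5 and 6. Against Hpgd the ratio did differ with genotype: Hand2 was 0.74, 1.16 and 7.67 times Hpgd in wild type on day 6, and 47.7, 45 and 46.4 times in mutants.

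Hpgd, whose enzyme oxidises prostaglandins to inactive products, was lower in Hdn mutants on days 4, 5 and 6, where Hand2 was higher. ESC levels were low, at 0.205, 0.232 and 0.252 scaled RPKM in wild type and 0.303, 0.522 and 0.418 in mutants. In ESCs all mutant libraries lay above all wild-type ones. On day 3 the order had turned round, with 0.601, 0.955 and 0.558 in wild type and 0.182, 0.0668 and 0.209 in mutants. From then on no mutant library reached any wild-type one of the same day.

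By group mean the difference in scaled RPKM between the genotypes grew from day 3 on, up to 9.17 ± 2.83 against 1.69 ± 0.316 on day 6. The fitted log2 change did not grow from day 5 (-2.31) to day 6 (-2.11). On day 4 the wild-type libraries were at 2.31, 4.3 and 2.62 scaled RPKM and the mutants at 0.306, 0.634 and 0.679. On day 5 they were at 4.3, 8.39 and 7.66 against 0.905, 0.552 and 1.45, and on day 6 at 7.78, 12.4 and 7.3 against 1.39, 2.02 and 1.67. Mutant day 6 (1.69 ± 0.316) had less Hpgd than wild-type day 4 (3.08 ± 1.07), with ranges apart.

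The fitted Hpgd change was 0.32 in ESCs (SE 0.25, limma adjusted p = 0.309, not called). On day 3 it was -0.88 (adjusted p = 0.0166 in limma), short of the size set for a call, and -1.69 with a pseudocount of 0.1 (adjusted p = 0.000922). It was -1.76 on day 4 (limma adjusted p = 1.72e-05), -2.31 on day 5 (3.53e-07) and -2.11 on day 6 (8.28e-07), and the mean over stages was -1.35 (SE 0.11, adjusted p = 6.32e-10). Without the 5 libraries with heart transcripts the changes were -1.86 on day 4 and -2.53 on day 5, and leaving out any single library kept all 3 calls. The summed level of 6 trophoblast and surface ectoderm genes was lower in mutants, as Hpgd was, on days 3 and 4. In ESCs this sum was 69.6 to 85.7 scaled RPKM in wild type and 40.3 to 66.3 in mutants, where Hpgd was higher. It was 958 to 1112 scaled RPKM in wild type and 286 to 440 in mutants on day 3, and 1438 to 1566 against 966 to 1328 on day 4. On day 5 it was 1264 to 1694 against 1466 to 1722, and on day 6 1113 to 2011 against 1452 to 1707. The part of this sum in the Hpgd difference was not tested at any stage.

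The other measured neighbours were not called for the mutation at any stage. Fbxo8, an F-box protein, came nearest. Its wild-type libraries were at 3.15, 3.6 and 3.93 scaled RPKM on day 6 and its mutant libraries at 2.43, 2.51 and 2.44, with no overlap. Over days 3 to 6 it ranged from 2.35 to 3.93 in wild type and from 1.81 to 3.1 in mutants. Its changes were -0.34, -0.21, -0.42 and -0.45 on days 3, 4, 5 and 6 (limma adjusted p = 0.2, 0.388, 0.0845 and 0.0529), and the mean over stages was -0.24 (SE 0.08, adjusted p = 0.00978), under the size set for a call. On days 4 and 5 the mutant library with heart transcripts had the highest mutant level, 3.05 and 3.1, and without those libraries the day 5 change was -0.60 (adjusted p = 0.00873).

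Sap30 was among the more abundant members and fell from ESCs to day 6 in both genotypes. Its ESC levels were 91.5, 91.8 and 92.7 scaled RPKM in wild type and 75.9, 77.1 and 78.1 in mutants, tight triplets with no overlap and a change of -0.25 (limma adjusted p = 0.245). On day 3 they were 63.3, 50 and 54.3 against 38, 46.1 and 43.2, a change of -0.39 (adjusted p = 0.141). By day 6 the genotypes overlapped, with 37.8, 28.1 and 35.6 in wild type and 33.6, 32.5 and 31.4 in mutants (change -0.05, limma adjusted p = 0.889). From ESCs to day 6 the Sap30 change was -1.44 in wild type and -1.23 in mutants (limma adjusted p = 8.59e-08 and 8.83e-07).

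Hmgb2, a chromatin protein abundant in dividing cells, had the highest level of the 10 genes in each library, between 133 and 247 scaled RPKM. Its change was 0.26 in ESCs (limma adjusted p = 0.112) and lay between -0.07 and 0.02 on days 3 to 6. HMGB genes have processed copies elsewhere in the genome, and how reads that match several places were counted is not given in the sources used here. Galnt7 rose from ESCs to day 3 in wild type (1.10) and stood at 0.88 in mutants, under the size for a call. It was at 0.738, 0.747 and 0.977 scaled RPKM in wild-type ESCs and 0.94, 1.34 and 1.13 in mutant ones, and at 1.96 to 3.67 in the 24 libraries of days 3 to 6. Its changes with genotype were 0.31 in ESCs and between -0.10 and 0.17 afterwards (limma adjusted p from 0.142 to 0.943). Scrg1 had 0 or 1 read in every library and reads in 7 of 30, so it was not detectable at this depth beyond that (permutation p = 0.39 within stages).

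**Figure D3:**
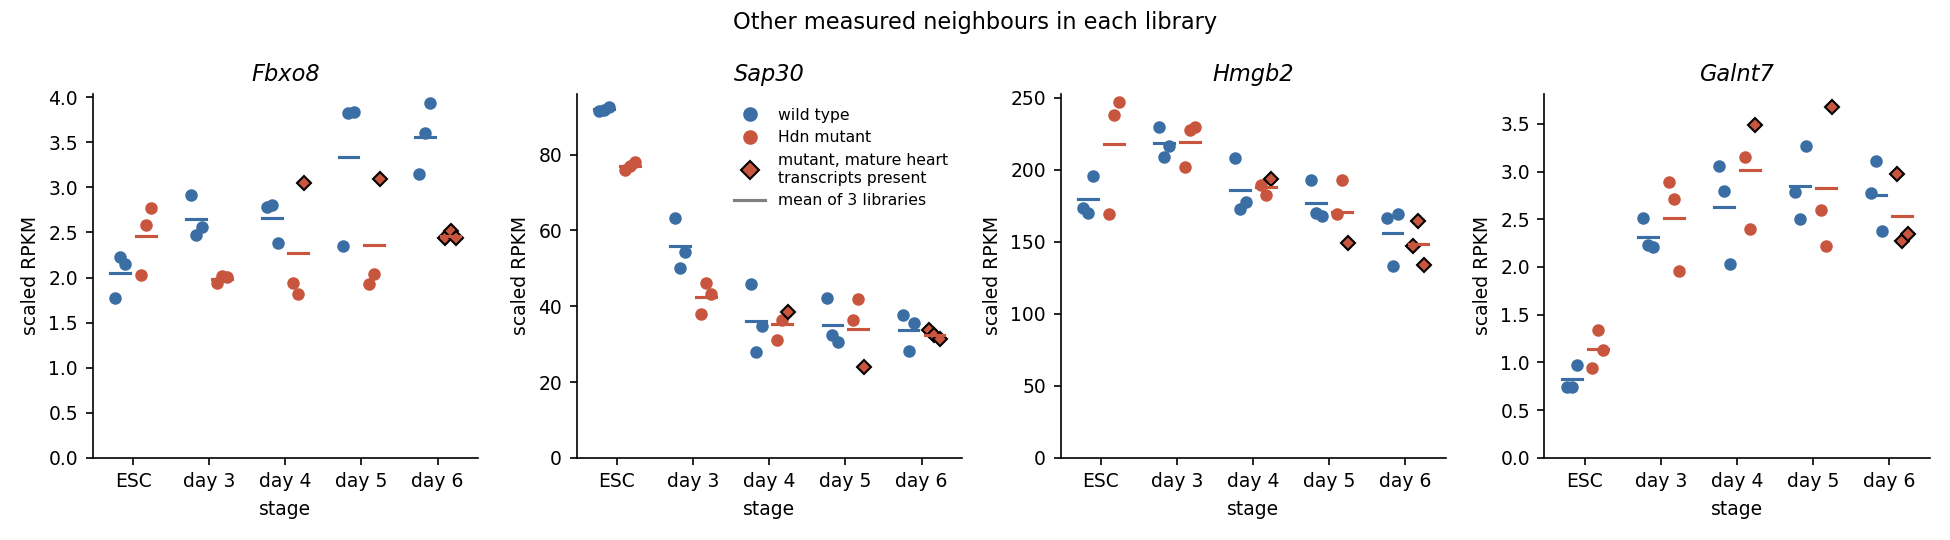
Scaled RPKM (linear axes from 0) of Fbxo8, Sap30, Hmgb2 and Galnt7 by stage, each point 1 library and each bar the mean of 3 libraries. Sap30 starts at 75.9 to 92.7 in ESCs and ends at 28.1 to 37.8 on day 6, Galnt7 lies at 0.738 to 1.34 in ESCs and 1.96 or more afterwards, and the genotypes lie close together; diamonds mark mutant libraries with mature heart transcripts.

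Only members with enough RNA could be set against all genes. Of the 6 members that passed the filter, 0 were called in ESCs, where 11.7% of all tested genes were, and 0 on day 3, where 3.35% were. On each of days 4, 5 and 6, 2 of 6 were called, where 5.18%, 6.01% and 7.78% of tested genes were. Hand2 was the 1 called upward, as were 2.37%, 2.42% and 3.66% of genes on these days, and Hpgd the 1 called downward, as were 2.81%, 3.59% and 4.12%. For the mean over stages 2 of 6 were called against 2.66% of genes. The median change of the 6 members was 0.237 in ESCs and -0.164, 0.00666, -0.0602 and -0.0881 on days 3 to 6, beside -0.0994, -0.00586, -0.00352, -0.000973 and 0.00584 over all tested genes. Groups that did not overlap were common everywhere. The groups of 2, 4, 1, 2 and 3 of the 6 members did not overlap in ESCs and on days 3, 4, 5 and 6, beside 56.8%, 42.2%, 37.2%, 30.2% and 39.1% of tested genes.

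**Figure D4:**
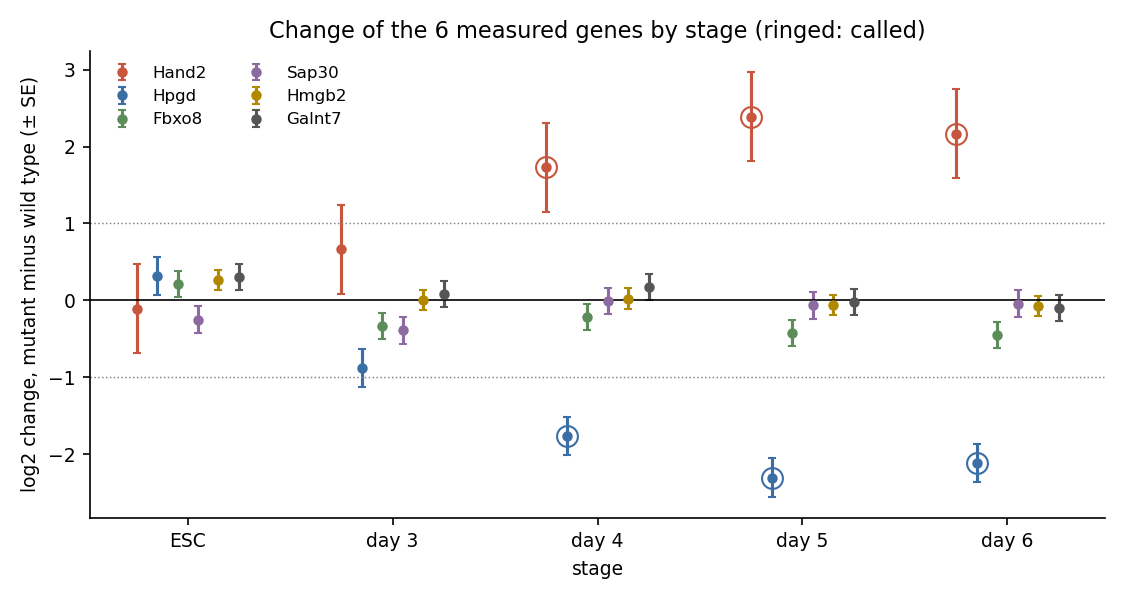
Log2 change, mutant minus wild type, with its standard error (vertical axis), of the 6 measured members by stage, with dotted lines at a change of 1 in either direction. Hand2 is ringed as called at 1.73, 2.39 and 2.17 on days 4, 5 and 6 and Hpgd at -1.76, -2.31 and -2.11, while the other 4 stay within 1 of 0.

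Among the genes near Hand2, only these 2 of the 9 tested were called on days 4, 5 and 6. Of all tested genes, 5.18%, 6.01% and 7.78% were called on these days. No gene of the 9 was called in ESCs or on day 3, where 11.7% and 3.35% of all tested genes were. Within 2 Mb on either side RefSeq lists 54 genes, of which 35 have a row in the table and 9 passed the filter. They are 6 of the members with Cep44, 2500002B13Rik and Gm10284. The genes closest to Hand2 by position among those tested, Sap30 and 2500002B13Rik, had changes of -0.06 and -0.47 on day 5 (limma adjusted p = 0.869 and 0.0375), the second of them short of the size for a call. Cep44 and Fbxo8, which lie between Hpgd and Hand2, had changes of -0.27 and -0.42 (adjusted p = 0.184 and 0.0845). The called genes were thus Hand2 itself and the most distant tested gene, with 2 uncalled ones between them.

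**Figure D5:**
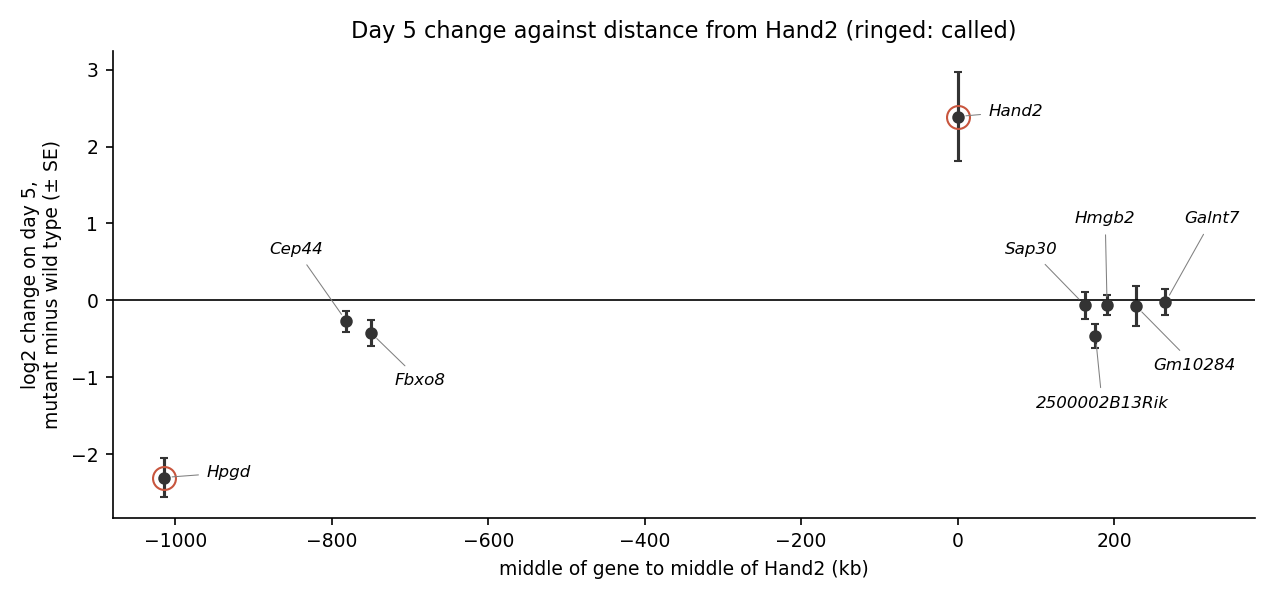
Log2 change on day 5, mutant minus wild type, with its standard error, against the distance of each tested gene's middle from the middle of Hand2 in kilobases. Hand2 (2.39) and Hpgd (-2.31) are ringed as called, and the other 7 genes lie between -0.47 and -0.03.

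Stage by stage in wild-type cells, Hand2 and Hpgd both came on and were first called at different steps. Whether they differed in timing was not tested. From ESC to day 3 only Galnt7 of the 6 was called, rising by 1.10 (limma adjusted p = 3.81e-06; 37.7% of genes were called in this step). Sap30 was at -0.72 (adjusted p = 0.00081) and Hpgd by 0.71 (adjusted p = 0.0138), both under the size for a call. From day 3 to 4 Hpgd rose by 1.54 (limma adjusted p = 0.000244, with 2.35% of genes called). Hand2 stood at 0.67 in that step, uncalled, with means of 0.00993 and 0.382 scaled RPKM on days 3 and 4. From day 4 to 5 Hand2 rose by 2.87 (adjusted p = 0.0049) and Hpgd by 1.02 (adjusted p = 0.0189), where 1.51% of genes were called. From day 5 to 6 none of the 6 was called by limma, with 1 at an unadjusted p under 0.05, Hand2 at 1.55, and 0.218% of genes were called. Over the whole course from ESC to day 6, 4 of 6 were called (42.2% of genes), namely Hand2 at 4.77, Hpgd at 3.69, Galnt7 at 1.30 and Sap30 at -1.44. The Hpgd call of day 4 to 5 sat at the size set for a call, and leaving out any of wild-type replicates 1 and 3 of day 4 or 2 and 3 of day 5 ended it, with changes of 0.848 to 0.938.

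In mutant cells Hand2 was the member with the largest change over the course. No member was called by limma from ESC to day 3 (39.7% of genes were), where Sap30 was at -0.86 (adjusted p = 0.000131) and Galnt7 at 0.88 (adjusted p = 6.76e-05), both under the size for a call. These were the 2 members at an unadjusted p under 0.05. From day 3 to 4 Hand2 rose by 1.74 (limma adjusted p = 0.0284; 8.36% of genes called), a call lost without mutant day 3 replicate 1 (1.77) or 2 (1.54) or day 4 replicate 3 (1.10). From day 4 to 5 it rose by 3.53 (adjusted p = 0.000337; 2.68% of genes called). From day 5 to 6 no member was called by limma (1.46% of genes), and Hand2 (1.33) and Hpgd (0.61) were the 2 at an unadjusted p under 0.05. From ESC to day 6, 3 of 6 were called (47.2% of genes), Hand2 at 7.04, Hpgd at 1.26 and Sap30 at -1.23.

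The genotype difference in these steps was tested directly. From ESC to day 3 the Hpgd step was -0.49 in mutants (uncalled) and 0.71 in wild type. The difference of -1.20 (SE 0.35, limma adjusted p = 0.015) was the 1 call among 6 members, where 9.52% of genes were called. No member was called by limma for the steps of days 3 to 4, 4 to 5 and 5 to 6, where 0.951%, 0.0775% and 0.19% of genes were. Only the day 3 to 4 step of Hpgd, with a difference of -0.89, had an unadjusted p under 0.05. An F test asked whether the genotype difference depended on stage. It passed for Hpgd (F = 18.9, limma adjusted p = 1.17e-05) and for 42.2% of all genes, and it did not pass for Hand2 (F = 3.34, adjusted p = 0.0596). With a replicate block in the model it passed for Hand2 (F = 4.828, limma adjusted p = 0.0173). The Hand2 steps themselves differed by 0.77, 1.07, 0.66 and -0.23 between the genotypes, each with an SE of 0.82.

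The partners of Hand2 were read from a list of 10 helix-loop-helix genes, all of which were measured. On days 5 and 6, 3 of 10 rose and 0 fell (medians 0.79 and 0.81), and on day 4 1 rose, where 2.42%, 3.66% and 2.37% of all tested genes were called higher. In ESCs and on day 3 1 fell, where 11.7% and 3.35% of genes were called in either direction, so that the ESC count lay near the background. Hand1, the closest relative of Hand2, was lower by -1.33 on day 3 (limma adjusted p = 0.00145) and higher by 1.54 on day 5 and 1.22 on day 6. Id4, which blocks E proteins, was higher on days 4, 5 and 6 (1.24, 1.29 and 1.12). Id1, another such inhibitor and a BMP target, was lower in ESCs (-1.31, adjusted p = 0.000311) and at 0.95, 0.86 and 0.78 on days 4 to 6, uncalled. Twist2, named after its values were seen, made up the third call on days 5 and 6 (1.24 and 1.22). Tcf12, an E protein, was not called at any stage, with a change of 0.52 in ESCs (adjusted p = 0.000441) and 0.07 to 0.28 later. Without the 5 libraries with heart transcripts, 9 of the 10 were tested and 5 rose on day 5, 3 of them called with those libraries too. The share of all tested genes called without those libraries is not given here, for this list or those below.

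Of 18 genes that act with Hand2 in heart and lateral mesoderm, 15 were measured. The list shares Nkx2-5 with the embryonic cardiac muscle genes and Tbx3 with the pluripotency genes. On days 4, 5 and 6, 7, 9 and 10 of the 15 rose and 0 fell, where 2.37%, 2.42% and 3.66% of all tested genes were called higher, and the medians were 0.88, 1.14 and 1.46. In ESCs 1 rose, and on day 3 1 rose and 1 fell, where 11.7% and 3.35% of all tested genes were called in either direction. Smyd1, a muscle methyltransferase, rose by 1.73 on day 5 and 2.39 on day 6 (limma adjusted p = 1.67e-09 and 7.48e-12), and Gata5, a cardiac GATA factor, by 1.60 and 2.21. The cell's own Bmp4 RNA rose by 1.60 on day 3 (limma adjusted p = 0.00568) and by 3.54, 2.87 and 2.37 on days 4, 5 and 6. Hand2 was uncalled on day 3, though its mutant libraries all lay above the wild-type ones. The order of Bmp4 and Hand2 in time was not tested. Nppa, an atrial hormone gene of heart muscle, rose on day 6 (2.48, limma adjusted p = 1.54e-07) and stood at 0.33 on day 5, uncalled. Nppa did not pass the filter without the libraries with heart transcripts, which include all mutant libraries of day 6. Its day 6 p is therefore no separate support. Without the libraries with heart transcripts, 14 were tested, and 8 rose on day 4 and 7 on day 5, of which 7 and 7 were also called with them. These counts stand without a share of all genes beside them. The heart marker counts given above moved with this list, and on day 6 their part was not tested.

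The prostaglandin list, fitted to Hpgd, did not move as a whole. Of 21 genes 12 were measured, and their medians lay between -0.13 and 0.09. In ESCs and on day 3, 0 of 12 were called by limma, where 11.7% and 3.35% of all tested genes were. On day 4 1 rose (Ptgds, named after its values were seen, 1.68, adjusted p = 0.044). On day 5 1 rose and 1 fell, namely Ptgis, the prostacyclin synthase (1.09), and Slco2a1, the transporter that brings prostaglandins into cells for breakdown by the Hpgd enzyme (-1.002, adjusted p = 0.000619). On day 6 1 rose, Ptgs2, the inducible cyclooxygenase that starts prostaglandin synthesis (1.30, adjusted p = 7.48e-05). These counts stand beside 5.18%, 6.01% and 7.78% of all tested genes called on days 4, 5 and 6. Slco2a1 stood at -0.85 on day 4 and -0.81 on day 6, under the size for a call. Ptges2, a prostaglandin E synthase, was at -0.84 in ESCs (adjusted p = 6.27e-05), uncalled. Without the libraries with heart transcripts Ptgds was not called on day 4 (1.61, adjusted p = 0.128), Ptgis was (1.02, adjusted p = 0.000558), and both day 5 calls were kept.

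Complexes and families of the remaining neighbours were counted in the same way. Of 16 subunits and partners of the Sin3 complex 15 were measured, with medians between -0.05 and 0.03. In ESCs 1 of them rose, on day 3 limma called 0, and on days 4, 5 and 6, 1, 2 and 2 fell. Of all tested genes 11.7% were called in ESCs and 3.35% on day 3, and 2.81%, 3.59% and 4.12% were called lower on days 4, 5 and 6. Without the libraries with heart transcripts 1 fell on day 4, and on day 5 2 fell and 1 rose (Sap30l, named after its values were seen, 1.06). Sin3b, one of its scaffolds, fell by 1.56, 2.24 and 2.29 on the log2 scale on days 4, 5 and 6, and Ing2, which reads histone methylation for it, fell by 1.32 and 1.37 on days 5 and 6. Arid4a rose in ESCs (1.56), and Hdac2, a catalytic subunit, was at 0.95 in ESCs and 0.41 to 0.56 later, uncalled. Both other HMGB genes measured, Hmgb1 and Hmgb3, were uncalled, at 0.81 and 0.65 in ESCs and 0.53 and 0.85 on day 6, where Hmgb2 was at -0.07. Of 15 other GalNAc transferases 8 were measured, and on days 4, 5 and 6 1, 2 and 2 rose and 0, 0 and 1 fell, where 5.18%, 6.01% and 7.78% of all tested genes were called. Without the libraries with heart transcripts 2 rose on each of days 4 and 5, with Galnt18 (1.31, named after its values were seen) the second on day 4. The Sin3 and GalNAc counts without those libraries have no share of all genes beside them. Galnt14 rose by 1.21, 1.94 and 1.41 on days 4 to 6 and Galnt10 by 1.20 and 1.504 on days 5 and 6, Galnt6 fell by 1.07 on day 6, and Galnt11 was uncalled (0.54 on day 6).

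The genes whose course was most like that of Hand2 were found by Pearson's r of log2(scaled RPKM + 0.5) over the 30 libraries, which share stages and genotypes, so that r is a description with no test. They were Tbx2 (r = 0.981), Gata6 (0.969), Bmp5 (0.969), Fgfr3 (0.967), Nrp1 (0.966) and Daam2 (0.963). Tbx2, a T-box repressor, went from a mean of 0.451 scaled RPKM on wild-type day 4 to 3.83 and 13.4 on days 5 and 6, and from 5.3 to 24.7 and 41.7 in mutants. Over the 15 wild-type libraries alone Tbx2 led again (r = 0.996), followed by Bmp5 (0.982), Rnd2 (0.978), Hoxd1 (0.977), Amer3 (0.974) and Dmrtc1a (0.969). Rnd2 and Dmrtc1a parted from Hand2 in mutants. Rnd2 had means of 140 scaled RPKM in wild type and 103 in mutants on day 6, and Dmrtc1a 2.15 and 0.175.

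For Hpgd, the genes with the most similar course were Afap1l2 (r = 0.982), Pparg (0.981), Sbsn (0.98), Serpinb9e (0.977), Chst13 (0.974) and Dmkn (0.973). Pparg, a nuclear receptor, had means of 6.75, 14.9 and 19.2 scaled RPKM on wild-type days 4, 5 and 6 and 0.242, 0.96 and 2.63 in mutants. Serpinb9e had 4.8, 20.3 and 27.8 in wild type and 0.104, 0.313 and 1.94 in mutants. Like Hpgd, all 6 were lower in mutants than in wild type by group mean on each of days 3 to 6. They were chosen by r over libraries of both genotypes, so this likeness follows from the choice and is no separate result.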

How the data were processed

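Total RNA was sequenced from 30 libraries, and the authors deposited 1 table of RPKM values per gene. The submitters' processing notes name BWA, STAR, SAMtools and DESeq2 and the build mm10. Strand, counting and annotation were not given in the sources used here. The other 4 samples of the series (3 of chromosome conformation and 1 of heart) were not analysed here. Whole reads per gene were recovered from the steps of the RPKM values (tolerance 1e-06). They served to give depth and reads, and no count test was run. Values were divided by median-ratio size factors (0.888 to 1.106, from 11618 genes), filtered at 1 scaled RPKM in at least 3 libraries, and tested as log2(scaled RPKM + 0.5) with limma 3.58.1 in R 4.3.3 over all 10 groups, with a mean-variance trend and Benjamini-Hochberg adjustment. The scripts were tested on simulated data. The 4 members under the filter were tested by exact two-sided permutation of 3 against 3 libraries, and within stages with 100000 resamples. Of each gene list, the up to 4 genes with the smallest adjusted p over the 5 genotype comparisons were named. Members and lists were chosen with earlier results of these data known. Alternatives were other scalings, pseudocounts and filters, a replicate block, the compared libraries alone, each library left out and the libraries with heart transcripts left out.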

Additional observations from a re-analysis of the deposited data

Results flagged for a closer look

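The genotype difference of Hpgd differed between stages, as it did for 42.2% of all tested genes. Its F statistic over the 5 stages was 18.92 (limma adjusted p = 1.17e-05), and leaving out any 1 library gave 15.26 to 24.49. Its step from ESC to day 3 differed between mutant and wild type by -1.196 on the log2 scale (limma adjusted p = 0.015), with -1.286 to -1.052 when 1 library was left out. With a pseudocount of 1 it was -0.7586 (limma adjusted p = 0.0616) and no longer called. In ESCs all 3 mutant libraries lay above the 3 wild-type ones, and on days 3 to 6 all 3 lay below.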

How the results depend on the processing

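Of 2848 values of 137 results under the alternatives, 2737 stayed on the same side of the threshold (counts within 1.5 times). Of these, 108 were differences that changed sign and were not called either way. The Hpgd calls of days 4, 5 and 6 and the Hand2 call of day 5 held under each alternative that gave a value, with Hpgd at -2.32 to -1.38, -2.72 to -1.97 and -2.34 to -1.88, and Hand2 at 1.83 to 2.84. The day 4 call of Hand2 was lost with a pseudocount of 1 (1.30), with no filter (1.733), with the 6 compared libraries alone (1.733) and without the libraries with heart transcripts (1.095). Leaving out 1 library gave 1.095 to 2.267. On day 6 the 6 libraries alone gave 2.166 (limma adjusted p = 0.0868), and leaving out 1 library 1.427 to 3.014. Members called on day 4 were then 1 in each of these cases (1 to 2 over single libraries), and on day 6 1 with the 6 libraries (1 to 2 over single libraries). On day 3, 1 member was called with a pseudocount of 0.1 and by adjusted p alone. Gm34030 ranged from -0.2041 to -0.08316 over single libraries. Wild-type steps gave 0 members from ESC to day 3 with libraries set to the same sum, a pseudocount of 1 or a filter of 5, 2 with a pseudocount of 0.1 and 3 by adjusted p alone. From day 3 to 4 they gave 2 by adjusted p alone. From day 4 to 5 they gave 1 with quantile normalization or a pseudocount of 0.1 or 1, 0 with the 6 libraries, and 1 to 2 over single libraries, and from day 5 to 6 they gave 0 to 1. Mutant steps gave 1 from ESC to day 3 with the same sum, 2 with a pseudocount of 0.1 or by adjusted p alone, and 0 to 1 over single libraries. From day 3 to 4 they gave 2 with a pseudocount of 0.1, 0 with a pseudocount of 1, no filter, the 6 libraries or the heart libraries left out, and 0 to 1 over single libraries. With the 6 libraries they gave 0 from day 4 to 5 and 1 from day 5 to 6. The step difference from ESC to day 3 gave 0 with a pseudocount of 1. The F test gave 2 with no scaling, a pseudocount of 1 or the replicate block, and 1 to 2 over single libraries. Replicate numbers did not pair wild-type with mutant samples of a stage, since 7 of 15 same-numbered pairs correlated above 0.1 (-0.523 to 0.409). Whether they link samples across days was not tested. In wild type, Hand2 rose from replicate 1 to 3 on days 4, 5 and 6 and fell in ESCs and on day 3. The main model did not use replicate numbers. With the replicate block the F statistic of Hand2 was 4.828 (limma adjusted p = 0.0173). The causes were not tested. Members with few reads (Hdn, Gm34030, Hand2os1 and Scrg1) are limited by depth.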
